A study of Mus musculus with 13 samples.

Results

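Merkel cells were the 181 cells that carried simple epithelial keratins together with Merkel lineage factors among 62150 kept cells of 9 mouse skin libraries. A cell was counted when it held at least 5 UMIs (unique molecular identifiers, 1 per captured RNA molecule) of Krt8 plus Krt18 and at least 1 UMI of 2 or more of Atoh1, Sox2, Isl1 and Krt20. It also had to hold under 20 UMIs of Col1a1 plus Col3a1 per 10000 and no UMI of the endothelial gene Cdh5. These genes chose the cells, so their levels are descriptions and were not tested. The study sequenced C57BL/6 skin by droplet 3′ RNA-seq to follow epidermal differentiation, in wild-type (WT) mice and in mice lacking the epidermal transcription factor Grhl3 (Grhl3 -/-, called KO). The libraries used were 2 WT and 2 KO of whole back skin at E16.5 (embryonic day), and 2 WT and 2 KO of epidermis at postnatal day 0 (P0). A further WT library of P0 epidermis, titled Chromium v1, is written P0 WT v1 and entered no test. The labels name no Cre or transgene, no cell type was sorted from the skin or epidermis, dead cells were removed with a kit before loading, and WT and KO mice of an age were littermates. The study's methods call the 2 libraries of a group biological replicates, so the p-values measure the spread between such libraries.

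Merkel cells are touch receptors of the epidermis. They arise from epidermal progenitors under the basic helix-loop-helix factor Atoh1, keep the keratins of simple epithelia, and contact sensory nerve endings. Displacement of the skin opens the mechanically gated channel Piezo2 in their membrane, and they hold dense core granules and parts of the presynaptic machinery that neurons use.

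The Merkel cells numbered 6 and 8 in the E16.5 WT libraries, 5 and 6 in E16.5 KO, 44 and 65 in P0 WT, 22 and 7 in P0 KO and 18 in P0 WT v1. They held a median of 5904 UMIs (3235 to 37893) and 2151 genes. All 4 factors were detected in 109 cells, 3 in 50 and 2 in 22, and Atoh1 was undetected in 18, Krt20 in 19, Isl1 in 25 and Sox2 in 32. The median Krt8 plus Krt18 count was 20 UMIs. Just inside the limit, 17 cells held 5 to 9 such UMIs. Just outside it, 8 cells with 2 or more factors held 3 or 4, and 44 cells that passed on Krt8 and Krt18 held none of the 4 factors. Library medians of the UMIs of 35 synaptic genes per 10000 lay between 5.92 and 29.3 in the classes of Merkel cells. They were at most 2.04 in these 44 cells, but ran from 2.99 to 16.9 in the 8 cells and from 0 to 20.4 in 6 further cells that passed on Krt8 and Krt18 with 1 factor, so some cells outside the rule had Merkel cell levels. No cell barcode was shared between Merkel cells of different libraries.

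A few facts of the libraries bear on the comparisons. Each library held 49245953 to 107038146 UMIs, and its kept cells had a median of 7448 to 9976. Grhl3 read 4.03 and 6.65 UMIs per 1000000 UMIs (CPM) in the kept cells of the E16.5 WT libraries and 1.47 and 0.693 in E16.5 KO. At P0 it read 6.998 and 8.29 in WT, 2.42 and 2.81 in KO and 6.34 in P0 WT v1, so WT and KO libraries did not overlap at either age. At E14.5 it read 4.42 and 7.30 in libraries labelled WT and 4.08 and 9.89 in those labelled KO. Grhl3 itself had 2 UMIs in all Merkel cells together. Of the E16.5 libraries 3 were rich in Xist and E16.5 KO 1 was rich in Y-linked transcripts, as was each P0 library, so age and sex were nearly aligned. The study's methods give a male and a female for each genotype and age, which these transcripts show only for E16.5 KO among the groups compared. Tissue (whole skin or epidermis) was fully aligned with age. So was dissociation, since the methods give a shorter step in the enzyme Dispase at E16.5 than the overnight step at P0. Neither can be told apart from age.

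The gene with the largest excess in Merkel cells was Ccer2, the gene of coiled-coil glutamate-rich protein 2. Its bases upstream are printed below with those of Chga and Dll3, further genes among the 20 highest in Merkel cells. They are shown because each holds the CAGCTG word, as 12 of the 17 promoters read did not, and because Chga and Dll3 return in the results below. The sequences are the 250 bases before the annotated start, from RefSeq on GRCm38.p6, read 5′ to 3′ on the gene's strand. Capitals mark CAGCTG, an E-box core that basic helix-loop-helix factors can bind, and TGACGT, the core of a cyclic AMP response element, with each searched on both strands. Overlapping matches run together, and TGACGT was added after the sequences had been read.
Ccer2, chr7:28755924-28756173, plus strand: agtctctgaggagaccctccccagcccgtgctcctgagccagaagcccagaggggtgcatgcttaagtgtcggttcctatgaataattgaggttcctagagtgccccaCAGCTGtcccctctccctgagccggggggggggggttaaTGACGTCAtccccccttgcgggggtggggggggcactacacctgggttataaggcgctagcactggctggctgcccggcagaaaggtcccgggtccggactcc
Chga, chr12:102554691-102554940, plus strand: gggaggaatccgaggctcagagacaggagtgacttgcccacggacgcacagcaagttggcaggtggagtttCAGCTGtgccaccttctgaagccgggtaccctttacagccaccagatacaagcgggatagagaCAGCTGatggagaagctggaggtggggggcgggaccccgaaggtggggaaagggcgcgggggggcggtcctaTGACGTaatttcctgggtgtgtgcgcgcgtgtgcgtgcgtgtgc
Dll3, chr7:28301786-28302035, minus strand: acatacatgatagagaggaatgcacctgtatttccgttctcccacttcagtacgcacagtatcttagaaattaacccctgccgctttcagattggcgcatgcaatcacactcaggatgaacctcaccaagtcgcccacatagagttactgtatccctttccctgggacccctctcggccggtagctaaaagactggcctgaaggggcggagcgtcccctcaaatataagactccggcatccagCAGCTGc

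Of the 20 genes, 17 had an entry in the promoter table (all but Pou4f3, Cpe and Syt13), and 5 of these held CAGCTG (Ccer2, Hepacam2, Chga, Espn and Dll3). The same word stood in 12.8% of all 27025 promoters of that length. CAGATG on either strand, a second E-box core, stood before Selm and Sncg and in 14.48% of all promoters. TGACGT stood before Ccer2, Chga and Meg3 and in 6.56% of all promoters. These are matches of letters in a short window and were given no test.

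Ccer2 (ENSMUSG00000096257) lies on chromosome 7 from 28756174 to 28758968 on the plus strand (GENCODE vM21, GRCm38), has 5 exons, and its last 718 bases overlap the end of Nfkbib on the minus strand. It gave 155458 UMIs in the Merkel cells, 10.8% of all their UMIs, and every one of the 181 cells held it, with a lowest count of 64, a median of 851 and a highest of 2281. In the summed Merkel cells it read 119401 and 100269 CPM in E16.5 WT, 110294 and 102690 in E16.5 KO, 84148 and 126388 in P0 WT, 87944 and 97666 in P0 KO and 147456 in P0 WT v1. WT and KO libraries overlapped at both ages. In keratin-high cells, defined as other kept cells with at least 100 UMIs of Krt5, Krt14, Krt1 and Krt10 per 10000, Ccer2 read 22.6 CPM over all 9 libraries. Nfkbib, the gene on the opposite strand, read 254.0 CPM in Merkel cells and 41.3 in keratin-high cells. The strand setting used in counting was not given in the sources used here, so reads of these genes cannot be told apart where they overlap.

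Ccer2 took a median of 11.2% of a Merkel cell's UMIs, from 0.414% to 38.4%, and 11 of the 181 cells stood under 1%. The rule did not use Ccer2, but the gene was picked for its excess in these same cells, so a count by Ccer2 is not independent of them. Of 61969 other kept cells in the 9 libraries, 13 had 1% or more of their UMIs from Ccer2. Of these, 7 had fewer than 2 of the factors and 5 had fewer than 5 UMIs of Krt8 plus Krt18, with 2 cells counted in both, and the remaining 3 had fibroblast collagen or a Cdh5 UMI. In the 4 libraries of E14.5 skin, which the rule did not cover, no kept cell reached 1%.

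**Figure D1:**
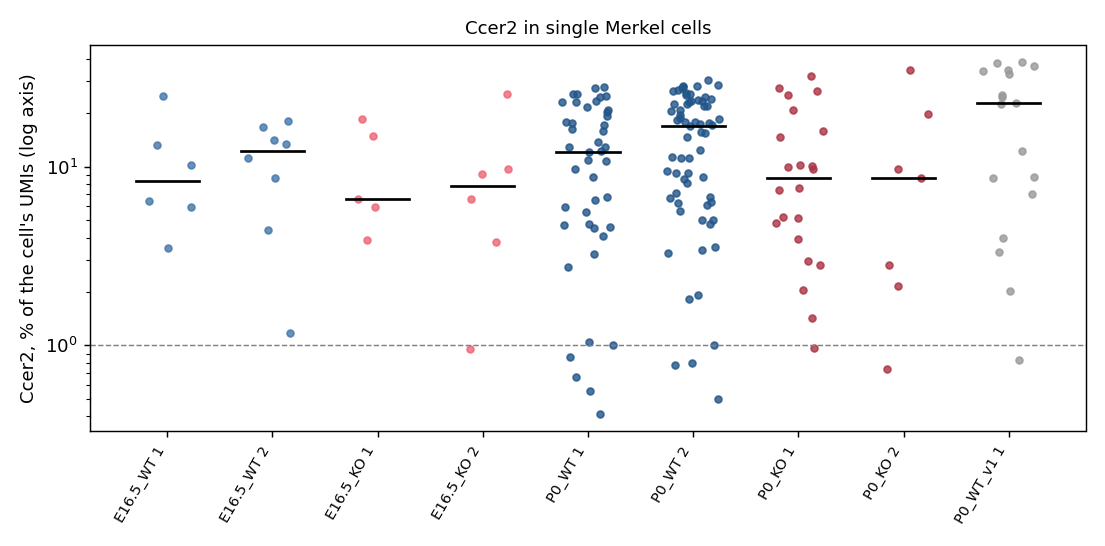
Share of each Merkel cell's UMIs that came from Ccer2, in percent on a log axis, with 1 point per cell, libraries along the horizontal axis, a black line at each library's median and a dashed line at 1%. The library medians lay between 6.63% and 22.6%, and 11 of 181 cells fell under the dashed line.

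Set beside keratin-high cells of the same library, 140 of 4406 genes outside the rule (3.18%) were higher in Merkel cells by at least 2 on the log2(CPM + 10) scale on average and higher in all 9 libraries. Another 122 (2.77%) were lower by as much in all 9. These counts describe a group chosen by its own transcripts and carry no test. With keratin limits of 50 or 200 UMIs per 10000, 133 and 139 of the 140 higher genes were found again, while the number of lower genes moved to 100 and 149.

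**Figure D2:**
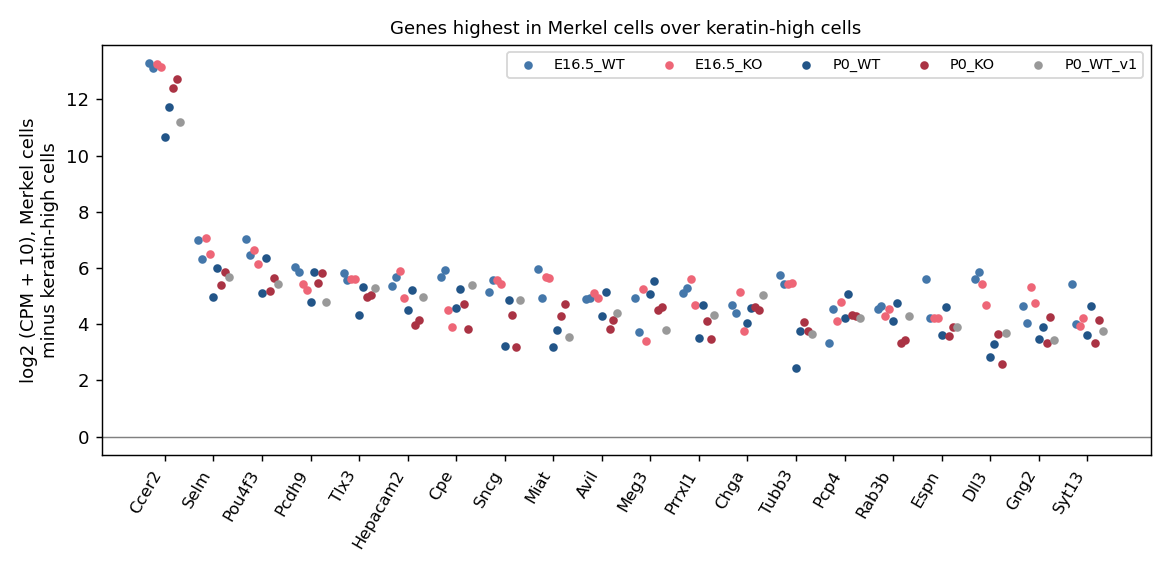
Difference in log2(CPM + 10) between Merkel cells and keratin-high cells of the same library for the 20 genes with the largest mean difference, with 1 point per library coloured by group. Each gene lies above 0 in all 9 libraries, with Ccer2 from 10.7 to 13.3.

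The transcription factors among the leading genes are known from sensory neurons and inner ear hair cells. Pou4f3, a POU factor that hair cells need, read 1286 and 866 CPM in E16.5 WT, 996 and 697 in E16.5 KO, 343 and 815 in P0 WT, 354 and 486 in P0 KO and 427 in P0 WT v1. In keratin-high cells it had 13 UMIs in all, or 0.0942 CPM. Tlx3 and Prrxl1, homeobox genes of somatosensory neurons, had 482 and 282 UMIs in Merkel cells and 15 and 2 in keratin-high cells. Of the 12 listed factors of Merkel, sensory or endocrine cells, 7 had enough UMIs to compare and 5 were higher, namely Pou4f3 (mean log2 difference 6.00), Insm1 (3.63), Hes6 (3.58), Nhlh1 (3.25) and Prox1 (3.17). Gfi1, a zinc finger factor that works beside Atoh1 in hair cells, had a mean difference of 2.86 but no UMI in the 5 cells of E16.5 KO 1. Nhlh2 was not seen.

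The mechanosensory and synaptic genes were present at low counts. Piezo2 read 153 and 132 CPM in E16.5 WT, 241 and 24.9 in E16.5 KO, 57.6 and 77.6 in P0 WT, 108 and 67.1 in P0 KO and 46.6 in P0 WT v1, from 113 UMIs in all. In keratin-high cells Piezo2 lay between 0.769 and 2.5 CPM in each library. Of 22 mechanotransduction and excitability genes, the 3 with enough UMIs were Piezo2, the calcium channel gene Cacna1a and its auxiliary subunit Cacna2d1, and each was higher, by a mean log2 difference of 3.03, 2.21 and 3.07. Of 35 genes of synaptic vesicles and exocytosis, 10 of the 13 compared were higher and none lower. They included the small GTPase genes Rab3b (4.22) and Rab3c (3.46), the synaptotagmins Syt13 (4.12) and Syt7 (3.70), Syn2 (3.95) and the SNARE gene Snap25 (3.00). The active zone genes Rims1 and Bsn and the vesicular glutamate transporter Slc17a7 had no UMI in any Merkel cell.

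Granule genes were led by Cpe, which trims prohormones. It read 643 and 885 CPM in E16.5 WT, 481 and 473 in E16.5 KO, 681 and 1148 in P0 WT, 585 and 470 in P0 KO and 861 in P0 WT v1. Of 27 granule and peptide genes, 5 of 9 compared were higher, and these were Cpe (4.87), Chga (4.53), Chgb (3.11), Pam (2.60) and Penk (2.57). Scg5 had a mean difference of 2.88 but was higher in 8 of the 9 libraries. Chga, the core protein of secretory granules, read 124 to 344 CPM in all 9 libraries against at most 0.533 in keratin-high cells. The peptide genes Vip, Sst, Nts and Tac1 and the amine synthesis genes Ddc and Tph1 had no UMI. The neurotrophin gene Ntf3, a survival factor for sensory axons, was higher by a mean log2 difference of 2.85 with 203 UMIs.

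Among 15 neuronal cytoskeleton genes, 5 of 6 compared were higher, with Tubb3 (4.42), Uchl1 (3.58) and Stmn2 (3.46) in front, while Nefl, Nefm and Dcx were not seen. Espn, which bundles actin in microvilli and hair cell stereocilia, and Avil, an actin-binding protein of sensory neurons, were higher by 4.21 and 4.63. Of 19 keratinocyte genes compared, 12 were lower and none higher. Krt5, Krt14, Krt1 and Krt10 are among the 12, but they chose the keratin-high cells, so their deficit was fixed by that choice. Of the other 15 genes 8 were lower, led by the basal keratin Krt15 (-3.50) and the cornified envelope gene Lor (-3.49), and they included Trp63 (-2.09), a transcription factor of basal keratinocytes. Epcam and Cdh1, epithelial adhesion genes, differed by 1.25 and -0.82 and were not among the genes called. Of the 3 Notch genes compared, Dll3, a ligand that dampens Notch signalling inside the cell, was higher (4.18) and Notch1 was lower (-2.03).

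Merkel cells carried cell cycle transcripts at 245 and 998 CPM summed over 18 genes in E16.5 WT and 206 and 1220 in E16.5 KO, against 2207 to 2717 in the keratin-high cells of those libraries. At P0 the sums were 1799 and 909 in WT, 945 and 1023 in KO and 2739 in P0 WT v1, and keratin-high cells read 1028 and 830, 2072 and 2145, and 2100. In these sums Merkel cells stood below keratin-high cells in each E16.5 library and both P0 KO libraries, and above them in the P0 WT libraries. The sums of E16.5 WT 1 and E16.5 KO 1 rested on 8 and 6 UMIs. Those of P0 WT included 4 and 3 cells of over 20000 UMIs. Cells were also counted after thinning to the same number of UMIs, over all P0 libraries together. Of 156 Merkel cells 19.2% then held 3 or more such UMIs, against 34.1% of 8732 keratin-high cells. The P0 WT libraries gave 44 and 65 of these Merkel cells but only 1374 and 1345 of these keratin-high cells. The pooled shares thus mix libraries in different proportions and cannot show how the kinds of cell differ within a library. Whether the excess in P0 WT holds cell by cell was not tested.

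Some droplets also held RNA of another cell type. Of the 181 cells, 16 had at least 20 melanocyte UMIs per 10000, 7 reached the keratin-high limit, 3 carried Ptprc and Tyrobp, 7 held over 20000 UMIs and 1 had at least 100 hemoglobin UMIs per 10000. In all, 32 cells had at least 1 such sign, 13 of 44 and 10 of 65 in P0 WT, 4 of 22 and 2 of 7 in P0 KO, 1 each in E16.5 WT 2, E16.5 KO 2 and P0 WT v1, and none in the other 2 libraries. Their Ccer2 share was 0.414% of UMIs or more. Summed over 6 genes, melanocyte RNA in Merkel cells read 1499 and 1481 CPM in P0 WT, 2085 and 67.1 in P0 KO, 77.6 in P0 WT v1 and at most 34.4 at E16.5. Hemoglobin genes summed to 112273 CPM in E16.5 KO 2, where 1 cell held most of them, and to 1563 to 2233 in the other E16.5 libraries. No doublet caller was run. Some results below are also given without these marked cells, a choice made after the data were seen. The others are for all Merkel cells unless stated. No fibroblast gene of 3 compared, immune gene of 4 or dermal condensate gene of 1 was called higher than in keratin-high cells. No melanocyte gene of 3 was either, although 16 cells were marked by such genes, so this call cannot show RNA held by few cells. No endothelial gene had enough UMIs to compare, and the rule itself had removed cells by collagen and Cdh5. Kdr, Cldn5, Esam, Sox18 and the periderm genes Krt4, Gabrp and Krt13 had no UMI.

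The number of Merkel cells was compared first, as a share of kept cells with its 95% Clopper-Pearson interval, which covers counting error only. At E16.5 the shares were 0.0689% (0.0253 to 0.150) and 0.120% (0.0518 to 0.236) in WT and 0.0920% (0.0299 to 0.215) and 0.0924% (0.0339 to 0.201) in KO. The E16.5 genotypes overlapped. At P0 the shares were 0.650% (0.473 to 0.872) and 0.986% (0.762 to 1.26) in WT and 0.240% (0.151 to 0.364) and 0.0961% (0.0387 to 0.198) in KO. Neither P0 KO library reached a P0 WT library, and P0 WT v1 lay between them at 0.356% (0.211 to 0.562).

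The P0 WT share averaged 0.818% ± 0.238 and the P0 KO share 0.168% ± 0.102 (SD, n = 2 each), a ratio of 5.27 between the geometric means. With 2 libraries against 2, the exact permutation test cannot go below p = 0.333, which is the value obtained (two-sided). At E16.5 the ratio of KO to WT was 1.01 (exact permutation p = 1). Over both ages, with genotype permuted within age, KO was lower by 1.19 on the log2 scale (two-sided exact permutation p = 0.222, 36 permutations, smallest possible 0.0556). The difference of the genotype effect between ages was 2.42 on the log2 scale in the direction of a lower KO share at P0 (exact permutation p = 0.167, same smallest value).

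Counting by Ccer2 gave nearly the same shares at P0. Of the 183 cells with at least 1% Ccer2, all but 13 were Merkel cells by the rule, so this count is not an independent check. Cells with at least 1% Ccer2 made up 0.650% and 0.941% of kept cells in P0 WT, 0.240% and 0.0961% in P0 KO and 0.376% in P0 WT v1. At E16.5 they made up 0.0919% and 0.165% in WT and 0.0920% and 0.0770% in KO. Ccer2 outside the Merkel cells moved the same way, at 34.0 and 27.6 CPM in P0 WT and 6.84 and 5.78 in P0 KO over all other cells under 1%, and 34.5 in P0 WT v1. When each cell was first thinned to 2000 UMIs, the shares were 0.251% and 0.592% in P0 WT and 0.0655% and 0.0275% in P0 KO. Leaving out the 32 marked cells, the difference over both ages was -1.21 on the log2 scale (exact permutation p = 0.167).

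The denominator mattered. Of keratin-high plus Merkel cells, Merkel cells made up 3.10% and 4.61% in P0 WT and 0.983% and 0.699% in P0 KO, so P0 WT still exceeded P0 KO. P0 WT v1 then read 0.638%, below both P0 KO libraries. At E16.5 they made up 0.606% and 0.590% in WT and 1.34% and 2.03% in KO, where the KO libraries held 369 and 290 keratin-high cells and the WT libraries 984 and 1347. On this denominator KO was higher than WT at E16.5 by a ratio of 2.75 and lower at P0 by 4.56, and the genotype effects of the ages differed by 3.65 on the log2 scale (exact permutation p = 0.0556, the smallest possible). The intervals of the E16.5 libraries overlapped. Whether fewer Merkel cells or a different recovery of other cells set these shares was not tested.

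**Figure D3:**
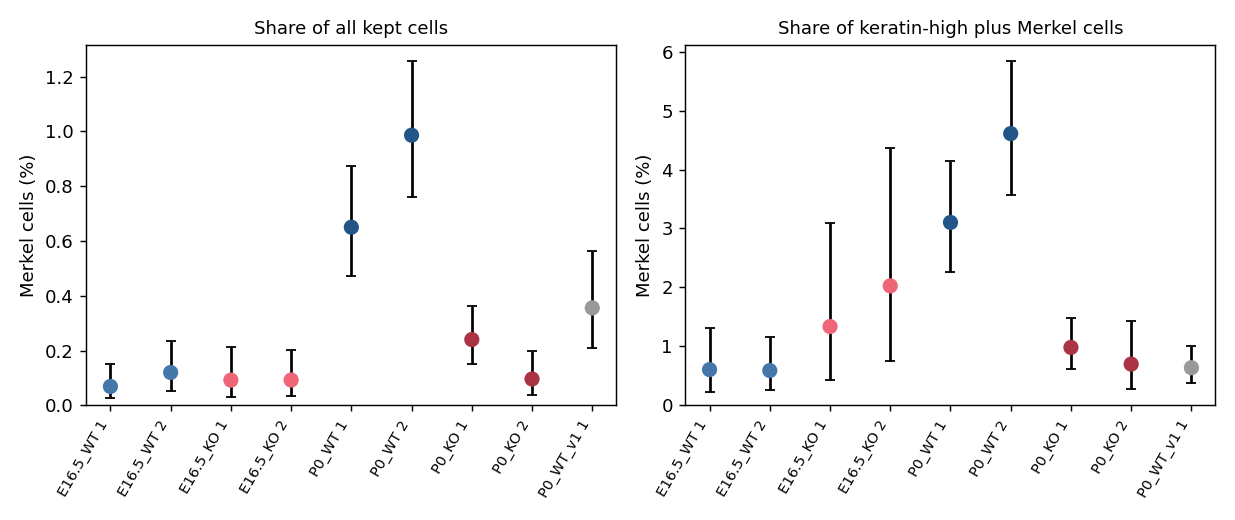
Merkel cells as a percentage of all kept cells (left) and of keratin-high plus Merkel cells (right) in each of the 9 libraries, with points at the share and bars at the 95% Clopper-Pearson interval. On the left the 2 P0 WT libraries stand at 0.650% and 0.986% and all others at or below 0.356%, and on the right P0 WT v1 falls to 0.638%.

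As counted by the rule, Merkel cells were a larger share of kept cells in each P0 library than in the E16.5 libraries of the same genotype, although P0 KO 2 (0.0961%) lay close to E16.5 KO. The log2 difference was 1.93, a ratio of 3.81 (two-sided exact permutation p = 0.0556 with age permuted within genotype, the smallest possible). Within WT the ratio was 8.81 and within KO 1.65. Without the 32 marked cells the difference was 1.66 (exact permutation p = 0.167). With each cell thinned to 2000 UMIs it was 0.84 (p = 0.333, same exact test), and the KO share was then 0.0465% at P0 and 0.0691% at E16.5, so the direction within KO turned. Of keratin-high plus Merkel cells, which sets the dermis of the E16.5 samples aside, the ratio was 6.32 in WT, while in KO the E16.5 share exceeded the P0 share by 1.99 (both exact permutation p = 0.333, the smallest possible with 2 against 2). At E14.5 no kept cell met the rule in any library, which allows shares of up to 0.0431% to 0.0570%.

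To compare levels within Merkel cells, UMIs were summed over the Merkel cells of each library and tested in edgeR with a quasi-likelihood model on the 8 libraries other than P0 WT v1. The sums held 29104 to 53117 UMIs at E16.5 and 59632 to 489492 at P0, and 1044 genes passed the filter on low counts. All adjusted p-values below are Benjamini-Hochberg values from edgeR. In the main fit they run over these 1044 genes, and over 735 where the marked cells were left out. Under the other settings the filter and the adjustment were run anew, so the number of genes can differ. Counts of genes leave out rule genes and mitochondrial genes. They run over 1027 genes in the main fit and 719 without the marked cells.

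Between P0 and E16.5, 188 genes passed an adjusted p of 0.05 (18.3%), 122 of them higher at P0 (11.9%) and 66 lower (6.43%). Of the 122 higher genes, 101 had a lower level in Merkel cells than in all kept cells. By symbol, 57 were ribosomal protein genes (Rpl or Rps followed by a number), out of 80 such symbols tested. This count takes in Rps12-ps3, whose symbol is that of a pseudogene, and leaves out Rplp1, Rplp2 and Rpsa, which were also higher. Each of the 57 genes also read higher at P0 than at E16.5 in all kept cells. Hemoglobin genes led the genes that fell. Hbb-bs read 1225, 998, 1477 and 67374 CPM in the E16.5 libraries, the last with the blood-marked cell, and at most 10.3 at P0. In all kept cells it averaged 13190.5 CPM at E16.5 and 7.06 at P0. Its log2 change of -9.97 was -7.48 without E16.5 KO 2 and -6.99 without the marked cells. Dct, a melanocyte gene, had no UMI at E16.5, and at P0 it had 442 and 508 UMIs in WT and 275 and 3 in KO, of which 416, 484, 273 and 0 lay in the melanocyte-marked cells. Without the 32 marked cells 148 of 719 genes passed, 100 higher (13.9%) and 48 lower (6.68%), and 134 of them were among the 188. The genes described next were chosen after their values were seen and stood at least 2-fold above all kept cells, as did 25 of the 66 lower genes.

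Hes6, Dll3 and Tubb3 were lower at P0. Hes6, a Hes family member induced in cells that start neural or sensory differentiation, read 827, 602, 825 and 697 CPM in the E16.5 libraries (WT 1, WT 2, KO 1, KO 2) and 180, 206, 195 and 184 at P0, and P0 WT v1 read 194. It fell by 1.79 on the log2 scale (SE 0.191, edgeR adjusted p = 0.00151). Every E16.5 library exceeded every P0 library.

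Dll3 read 490, 584, 447 and 249 CPM at E16.5 and 62.4, 89.9, 118 and 50.3 at P0. It fell by 2.17 (SE 0.294, edgeR adjusted p = 0.00248). Tubb3, a neuronal tubulin, read 827, 602, 756 and 523 CPM at E16.5 and 52.8, 176, 169 and 168 at P0, and fell by 2.12 (SE 0.349, edgeR adjusted p = 0.00436). The E16.5 and P0 libraries did not overlap for either gene. Hes6, Dll3 and Tubb3 passed under each of 16 other settings, among them leaving out the 32 marked cells, where the log2 changes were -1.46, -2.02 and -1.84.

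Other Merkel cell transcripts fell as well. Selm, a selenoprotein of the endoplasmic reticulum, read 3062, 1864, 2955 and 1817 CPM at E16.5 and 369, 817, 806 and 1040 at P0 (log2 change -1.58, edgeR adjusted p = 0.00511). Igsf8, an immunoglobulin family membrane protein, read 473 to 584 CPM at E16.5 and 125 to 201 at P0 (log2 change -1.54, edgeR adjusted p = 0.00248). Tubb2b, Miat and Mslnl also fell, by 1.58, 1.27 and 3.18 on the log2 scale (edgeR adjusted p = 0.0238, 0.0123 and 0.00673). Mslnl, the mesothelin-like gene, averaged 280 CPM at E16.5 and 28.7 at P0 in Merkel cells and 0.205 and 0.157 in all kept cells.

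Genes that rose at P0 and stood at least 2-fold above all kept cells were 4 in number, the peptide gene Cck, the prohormone convertase Pcsk2, Aspa and Caln1. Cck, which encodes cholecystokinin, had 0, 1, 0 and 1 UMI in the 4 E16.5 libraries. At P0 it had 151 and 300 UMIs in WT (362 and 613 CPM), 33 and 3 in KO (169 and 50.3 CPM) and 134 in P0 WT v1 (1040 CPM). Keratin-high cells held Cck at 0.138 CPM or less, so its RNA stood far higher in Merkel cells than in those cells in each P0 library. It rose by 4.32 on the log2 scale (SE 0.734, edgeR adjusted p = 0.00494), a fitted value that depends on the prior count because E16.5 was near 0.

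Pcsk2, which cuts prohormones in granules, had no UMI in any E16.5 Merkel cell. At P0 it had 193 and 145 UMIs in WT (463 and 296 CPM), 11 and 2 in KO (56.5 and 33.5 CPM) and 8 in P0 WT v1 (62.1 CPM). The edgeR adjusted p for age was 0.00932. Keratin-high cells also held Pcsk2 at P0, at 107 and 49.96 CPM in WT, 15.1 and 10.1 in KO and 14.2 in P0 WT v1, so its level moved in the same direction in both kinds of cell. Cck and Pcsk2 passed for age under each of the same 16 settings.

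**Figure D4:**
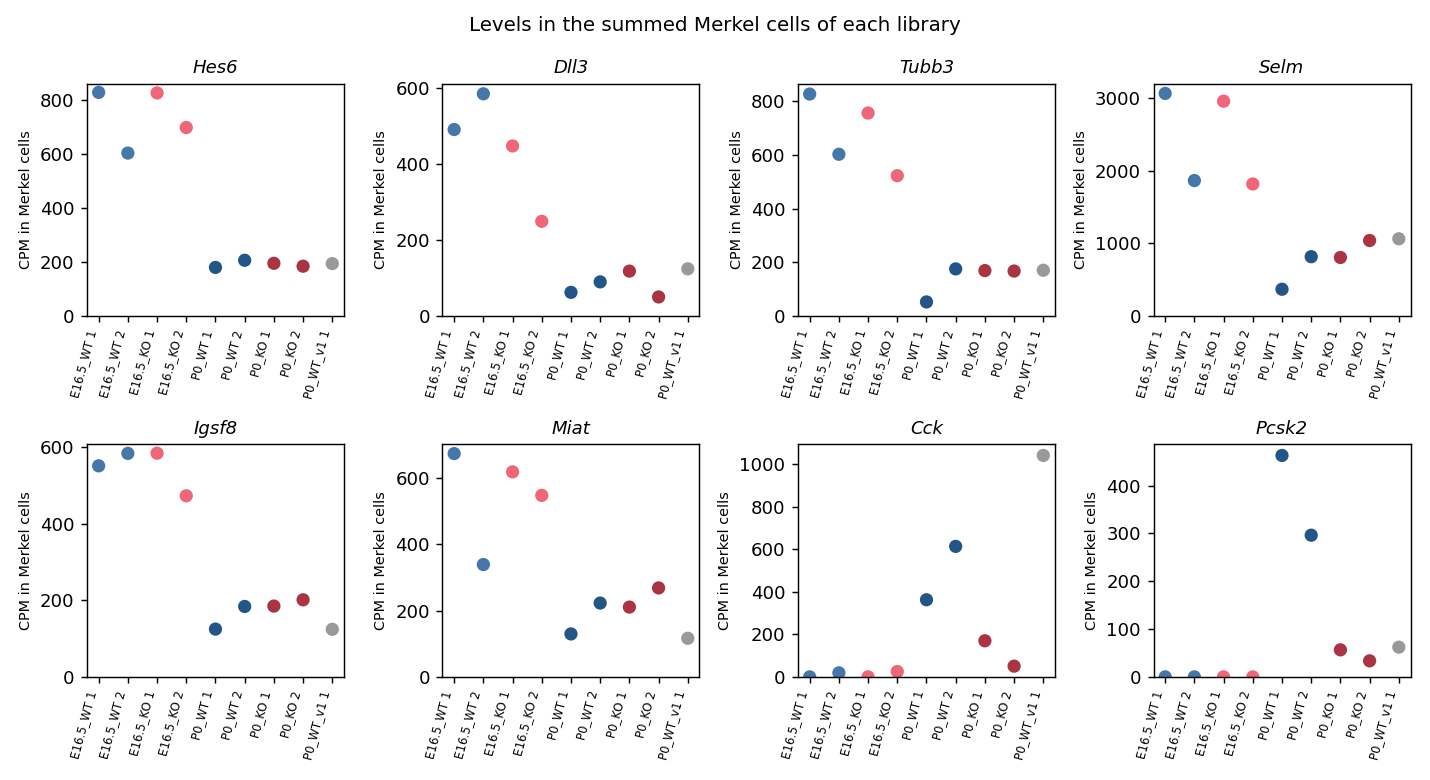
CPM in the summed Merkel cells of each library for 6 genes that fell from E16.5 to P0 (Hes6, Dll3, Tubb3, Selm, Igsf8, Miat) and for Cck and Pcsk2, which rose, with 1 point per library coloured by group and each axis starting at 0. Every E16.5 point lies above every tested P0 point for the first 6 genes, and Pcsk2 is 0 in all 4 E16.5 libraries.

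Without the marked cells, 59 of the 719 genes tested were among the 140 higher in Merkel than in keratin-high cells. Of these 59, 13 were lower at P0 and none higher, beside 6.68% lower and 13.9% higher over all 719. The 140 genes had to be higher in all 9 libraries, the E16.5 libraries with their small sums among them. A gene with no UMI in an E16.5 library, as Cck and Pcsk2 had, could not enter. The lack of higher genes is thus partly set by that choice. The same choice favours genes with high levels at E16.5, which are those that can fall. The share of lower genes therefore cannot show whether Merkel cell genes fell more often than other genes. Several leading Merkel cell genes did not pass a test between ages. Ccer2 differed by -0.01 on the log2 scale (SE 0.129, edgeR adjusted p = 0.971), Chga by 0.08 (SE 0.304, adjusted p = 0.889) and Cpe by 0.32 (SE 0.235, adjusted p = 0.367). Pou4f3 differed by -0.83 (SE 0.296, adjusted p = 0.0730), and none of the 5 synaptic genes tested passed, with a median difference of -0.70. Of the 7 granule and peptide genes tested, Cck and Pcsk2 rose and Nnat fell. Across all tested genes the median difference was -0.06. The rule genes, given as levels, read 3460 to 6521 CPM for Krt8 at E16.5 and 1166 to 2474 at P0, and 344 to 448 for Krt20 at E16.5 and 370 to 932 in the tested P0 libraries.

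KO and WT Merkel cells were compared last. Averaged over both ages, 2 of 1027 genes passed (0.195%), Krt10 and Krt1, both lower in KO, and 59 (5.74%) had an unadjusted p under 0.05. Without E16.5 WT 2 or without P0 KO 1 none passed. At E16.5 alone no gene passed in edgeR, 45 (4.38%) had an unadjusted p under 0.05 and DESeq2 called 1. At P0 alone 4 genes passed (0.389%), 3 lower in KO (0.292%) and 1 higher (0.0974%), and 100 (9.74%) had an unadjusted p under 0.05. The test of whether the genotype effect differed between ages passed for no gene in edgeR or DESeq2, with 76 (7.4%) and 34 genes at an unadjusted p under 0.05.

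Krt1 and Krt10, keratins of suprabasal keratinocytes, fell at P0 by 3.09 and 2.87 on the log2 scale (SE 0.339 and 0.350, edgeR adjusted p = 0.00403 and 0.00518). Krt1 read 556 and 621 CPM in P0 WT Merkel cells, 71.9 and 83.8 in P0 KO and 520 in P0 WT v1. In immune cells, which should lack it, Krt1 read 669 and 667 CPM in P0 WT, 281 and 128 in P0 KO and 906 in P0 WT v1, so Merkel cells did not exceed immune cells in any P0 library. Krt10 read 592 and 966 CPM in P0 WT Merkel cells and 862 and 939 in the immune cells, and the part of free RNA in these differences was not tested. Without the marked cells Krt1 read 186 and 186 CPM in P0 WT and did not pass the filter on low counts, and Krt10 differed by -1.44 (edgeR adjusted p = 0.0432). Krt1 and Krt10 count toward the keratin-high limit that marked some of these cells, so part of their fall was fixed by that choice.

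Pcsk2 was lower in P0 KO (log2 difference -3.04, SE 0.456, edgeR adjusted p = 0.0422), from the values given above. A UMI of Pcsk2 was found in 36 of 44 and 45 of 65 Merkel cells in P0 WT and in 8 of 22 and 1 of 7 in P0 KO. The median UMIs of these cells were 6990 and 5772 in P0 WT and 8856 and 8253 in P0 KO, and detection at equal depth was not tested. P0 WT v1, which is wild type, had 6 of 18 cells with Pcsk2 and lay near the KO level. In immune cells Pcsk2 read 18.4 and 4.81 CPM in P0 WT and 1.97 and 0.999 in P0 KO. Pcsk2 passed under 12 of 17 other settings and not without P0 WT 1, P0 KO 1 or P0 KO 2 (edgeR adjusted p = 0.0801, 0.125 and 0.195), nor with at least 3 of 4 factors or with sums thinned to equal UMIs (0.113 and 0.109).

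Ndufa4l2, a mitochondrial gene known to rise under low oxygen, was higher in P0 KO by 2.34 (SE 0.364, edgeR adjusted p = 0.0270). It read 62.4 and 38.8 CPM in P0 WT, 282 and 285 in P0 KO and 46.6 in P0 WT v1, so the WT and KO libraries did not overlap. At E16.5 the order was the other way, with 459 and 320 CPM in WT and 68.7 and 149 in KO (log2 difference -1.60, SE 0.557, edgeR adjusted p = 0.795). The genotype effects of the ages differed by 3.94 for this gene (SE 0.652, edgeR adjusted p = 0.132). It passed under 12 of 17 other settings and not without P0 KO 1 or P0 KO 2 (edgeR adjusted p = 0.130 and 0.125), with at least 3 of 4 factors (0.211), with thinned sums (0.209) or with the replicate block (0.0503). Krt1 and Krt10 also missed the threshold without P0 KO 1 (edgeR adjusted p = 0.0536 and 0.0598) and with at least 3 of 4 factors (0.442 for both), and Krt10 with 10 or more Krt8 plus Krt18 UMIs (0.0718).

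Cck differed by -2.013 on the log2 scale at P0 (SE 0.430) and missed the threshold (edgeR adjusted p = 0.101). Without the 32 marked cells the P0 sums rested on 31 and 55 cells in WT and 18 and 5 in KO, 719 genes were tested and 21 passed (2.92%), 18 lower in KO (2.5%) and 3 higher (0.417%). Cck then read 680 and 778 CPM in P0 WT and 207 and 23.5 in P0 KO (log2 difference -2.49, SE 0.432, edgeR adjusted p = 0.0133). Pcsk2 read 722 and 376 CPM against 53.5 and 46.9 (log2 difference -3.61, edgeR adjusted p = 0.0133), and Ndufa4l2 was higher by 2.20 (edgeR adjusted p = 0.0392).

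Of those 18 lower genes, 8 were among the 140 genes higher in Merkel than in keratin-high cells, which made up 59 of the 719 tested, and none of the 3 higher genes was. They included Ccer2 (log2 difference -0.72, edgeR adjusted p = 0.0349), Rab3b (-1.50, adjusted p = 0.0221), Hepacam2 (-1.58, adjusted p = 0.0227), Avil (-1.42, adjusted p = 0.0343) and Cpe (-1.38, adjusted p = 0.0392). Rab3b read 307 and 367 CPM in P0 WT, 140 and 141 in P0 KO and 259 in P0 WT v1 without the marked cells. Cpe read 1052 and 1482 in P0 WT, 655 and 469 in P0 KO and 886 in P0 WT v1. With all Merkel cells kept, none of these 5 genes passed. The marking was uneven, as cells of over 20000 UMIs numbered 4 and 3 in P0 WT and 0 in both P0 KO libraries. Without the marked cells Ccer2 rose from the values given above to 132716 and 159470 CPM in P0 WT. In P0 KO it rose to 98830 and 111281 CPM. The part of RNA from other cells and of this uneven marking in the calls was not tested. Summed over 13 genes of dissociation stress, all Merkel cells read 1617 and 1428 CPM in P0 WT, 2594 and 3874 in P0 KO and 2297 in P0 WT v1, so WT and KO did not overlap, and none of the 6 tested passed. Keratin-high cells read 2407 and 2657 CPM in P0 WT and 3333 and 4024 in P0 KO, and immune cells 1870 and 1821 against 2869 and 3351. Jun, an immediate early gene, was 1 of the 3 genes higher in KO without the marked cells (log2 difference 1.72, edgeR adjusted p = 0.0313). Malat1, a nuclear RNA, was among the 18 lower genes (log2 difference -1.29, edgeR adjusted p = 0.0133). Over all Merkel cells it read 40718 and 27189 CPM in P0 WT, 19670 and 18262 in P0 KO and 3127 in P0 WT v1, and keratin-high cells had the same order, at 41488 and 22028 CPM in P0 WT, 14361 and 10063 in P0 KO and 2032 in P0 WT v1. The part of these differences in the other calls was not tested. The P0 KO 2 sum rested on 5 cells here, and these calls came from a choice made after the data were seen.

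**Figure D5:**
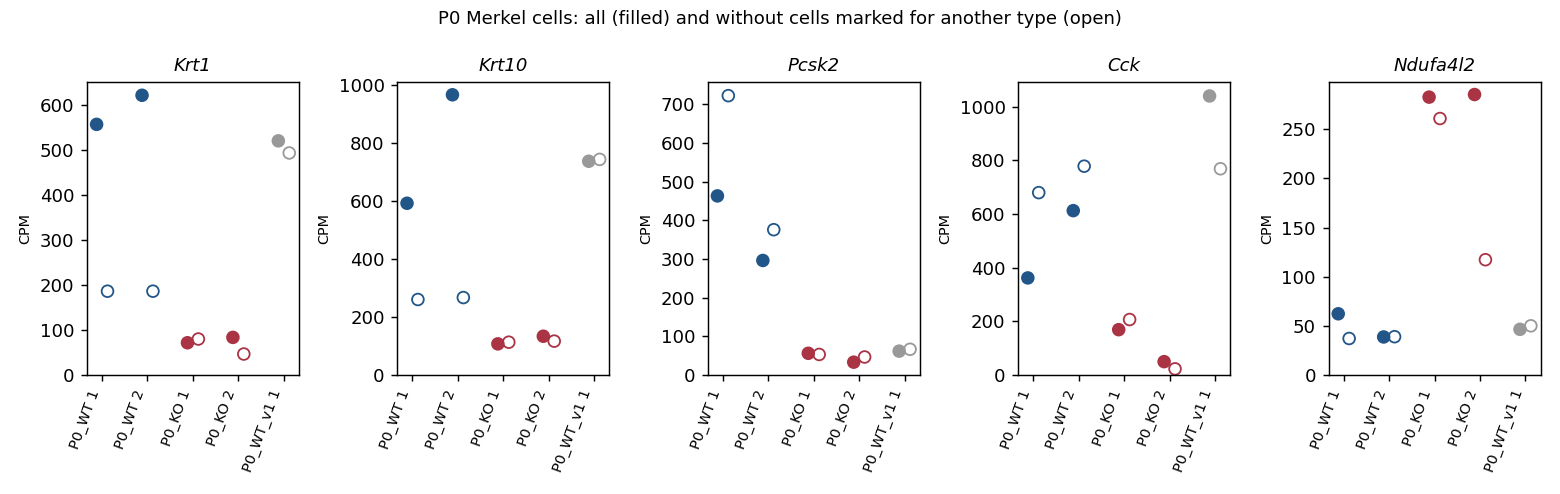
CPM in the summed Merkel cells of the 5 P0 libraries for Krt1, Krt10, Pcsk2, Cck and Ndufa4l2, with filled points for all Merkel cells, open points after leaving out cells marked for another type, and each axis starting at 0. Krt1 in P0 WT drops from 556 and 621 to 186 in both libraries, while Pcsk2 and Cck in P0 WT stay above both P0 KO libraries. Krt1 and Krt10 were among the genes that marked cells, so part of their drop was fixed by that choice.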

How the data were processed

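Droplet 3′ RNA-seq libraries of C57BL/6 skin were analysed from the deposited matrices of raw UMI counts per gene and barcode, which the authors made with Cell Ranger on mm10. The submitters' processing notes name version 1.3.1. Kept cells had 600 to 4800 genes (E16.5) or 900 to 7700 (P0) and at most 10% mitochondrial UMIs. Keratin-high cells also held no Ptprc or Cdh5 UMI, and immune cells held Ptprc and at least 2 UMIs of Tyrobp. Sums over Merkel cells were tested in edgeR 4.0.16 (TMM, filterByExpr, quasi-likelihood, 4 groups, 8 libraries), with DESeq2 1.42.0 as an alternative. On simulated counts with 8-fold changes edgeR recovered 100% in both contrasts run. With 4-fold changes it recovered 96.6% for age (915 genes) and 91.8% for genotype averaged over ages (904 genes). Of unchanged genes, 10 of 735 and 6 of 725 were called. These counts were drawn with the same fixed spread between libraries for every gene, which the real sums need not have. The genotype contrasts within 1 age were not simulated. Shares were compared by exact permutation of log2 shares. Single genes were named by rank among genes passing with no overlap of groups (5 a direction), by rank over keratin-high cells (20), or from gene lists. Outside this rule, Igsf8, Mslnl, Aspa, Caln1, S100z and Malat1 were named after their values were seen, and Nfkbib for its position. Members and lists were chosen with earlier results of these data known. Coordinates are 1-based.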

Additional observations from a re-analysis of the deposited data

Results flagged for a closer look

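In E14.5 skin, which lay outside the comparisons, Atoh1 was detected above the limit that a count of 0 allows (3 UMIs), with 12 and 21 UMIs in the kept cells of the libraries labelled WT and 6 in the library labelled KO 2, while the library labelled KO 1 had 0. The UMIs lay in 3, 9 and 2 cells. Of these cells, 2 in the library labelled KO 2 held Krt5 or Krt14. In that library 1 held Krt8 or Krt18 and 1 held Pou4f3, and whether these were the same cell was not counted. None of the cells with Atoh1 held Epcam or Ccer2. Every Merkel cell of the later ages held Ccer2, while Epcam was not among the genes called higher in them. Whether the E14.5 cells with Atoh1 belonged to the Merkel lineage was not tested.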

How the results depend on the processing

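With all genes tested (14104, no filter), 6 genes passed for genotype over both ages, 10 at E16.5, 35 at P0, 370 for age and 7 for the interaction. DESeq2 called 1 at E16.5 and 10 at P0. With a 5% mitochondrial limit, which left 4 Merkel cells in E16.5 KO 1 and dropped that library, the calls were 1 over both ages, 4 at E16.5 and 22 at P0. With 10 or more Krt8 plus Krt18 UMIs they were 0 over both ages and 1 for the interaction. With 3 of 4 factors both E16.5 KO libraries fell under 5 cells, and the P0 contrast, which alone could be fitted, gave 0. Sums thinned to equal UMIs gave 1 over both ages and 110 for age. Leaving out marked cells gave 0 over both ages and 21 at P0. The replicate numbers did not pair the libraries (correlations of deviations 0.108 and -0.0825). With the replicate block, 0 genes passed over both ages and the share differed by -1.19 (exact permutation p = 0.375) for genotype and 1.93 (p = 0.125) for age. Leaving out 1 library gave 0 to 3 genes over both ages, 0 to 4 at E16.5 (4 without E16.5 KO 1), 1 to 20 at P0 (20 without P0 WT 2, 1 without P0 KO 1), 109 to 239 for age (109 without P0 KO 1, 123 without E16.5 WT 2) and 0 to 2 for the interaction. For S100z the age difference ran from -4.07 to 0.0044 (the latter without E16.5 WT 2) when 1 library was left out. The cause of these changes was not tested. Share differences averaged over the other factor kept their direction under the alternatives run, from -1.73 to -0.11 for genotype and from 0.32 to 2.26 for age. Within KO the age difference turned from 0.72 to -0.99 (keratin-high denominator) and -0.62 (thinned cells), and within E16.5 the genotype difference ran from -0.55 to 1.46. The 5 to 8 cells per E16.5 library limit what could be seen there.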
